A study of Caenorhabditis elegans with 12 samples.

Results

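The astacins are a family of zinc metalloproteases, and the genes described here are the astacin genes of Caenorhabditis elegans, whose symbols start with nas- (nematode astacin), together with dpy-31, hch-1 and toh-1. Its members were taken by symbol from the table that pairs the array's probes with genes. The family itself was chosen with earlier results of these data known. The table named 34 such genes, where an annotated gene table lists 40. Of the 34, 27 had a value on 2 or more of the 4 arrays of every mutant, the condition for entering the tests. In the whole series 13732 of 16398 genes met it. Astacins are secreted or membrane-anchored enzymes with a zinc ion held by a conserved histidine motif, and most are made as inactive precursors. In nematodes they are known for work on extracellular matrix: some process cuticle collagens, some help to shed the old cuticle at a moult, and one helps the larva to leave the egg. They are mainly genes of somatic tissues such as the hypodermis, pharynx and gut.

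The samples were germ lines dissected from adult worms at 20 °C, and RNA from a mutant and from a wild-type strain was hybridised together on each of 12 two-colour arrays. The mutants were mes-2; mes-4 (strain SS0965, against unc-4(e120)), mes-4 (strain SS0803, against N2) and mes-2 (strain SS0186, against unc-4(e120)), with 4 arrays each from independent harvests. The labels give no allele for the mes genes and do not say whether the mutant strains carry an unc-4 mutation. MES-2 is the methyltransferase of histone H3 lysine 27 in the worm Polycomb complex, and MES-4 methylates histone H3 lysine 36. Per the labels' protocols, the mes-4, mes-2 and wild-type germ lines came from adults with few or no fertilized embryos, whereas those of the double mutant were picked for good proliferation and for oocytes, so the added mutation and this selection cannot be told apart. Every value below is a log ratio of mutant over wild type, read as log2. The base and the direction are not stated in the sources used here; the direction was taken from the titles and from channel 1, which held the mutant RNA on every array, and any fold given rests on base 2. A ratio carries no level, so whether the astacins were transcribed strongly or barely in wild-type germ lines was not measured, and less RNA per cell cannot be told apart from fewer cells of a type.

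As a check of the labels, the mes-2 probe had -2.7, -2.07, -2.69 and -2.49 in the double mutant, -0.41, -0.02, -0.66 and 0.25 in mes-4, and -2.09, -3.72, -2.58 and -2.81 in mes-2. It was below 0 on all arrays that carried a mes-2 mutation. The mes-4 probe had -0.68, 0.70, 0.40 and -0.55 in the double mutant, 0.61, 0.82, -0.01 and 1.1 in mes-4, and 0.45, -0.09, 0.26 and -0.22 in mes-2, so it does not check the label of mes-4, whose lesion is not given. Of 22490 probes, 17297 to 21879 were measured per array, with array medians of -0.01 to 0.02. Precision is set by the number of arrays, since there is no read depth. Earlier results of these data set 3 arrays apart on the main axis of residual spread, namely replicates 1 and 4 of the double mutant and replicate 3 of mes-4. Calls that change without them are given below. Replicates 2 and 3 of the double mutant lay at the other end of that axis, and were left out in another setting.

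Of the 27 astacin genes, dpy-31 and nas-30 rose in mes-2, nas-16 and nas-28 rose in the double mutant, and no member passed the test in mes-4. A gene was called when its adjusted p was under 0.05 in limma (Benjamini-Hochberg over all 13732 genes). In the double mutant 2 of 27 rose and 0 fell, against 9.02% of all genes higher and 5.71% lower (14.7% in either direction). In mes-4 the counts were 0 and 0, against 2.36% higher and 1.28% lower (3.64% in either direction), and 1 of 27 (nas-16) had an unadjusted p under 0.05, against 13.9% of all genes. In mes-2 the counts were 2 and 0, against 3.74% higher and 1.16% lower (4.9% in either direction). With 27 genes, such counts are not read as a result about the family as a whole.

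The median log2 ratio of the 27 genes was -0.018 in the double mutant, 0.018 in mes-4 and 0.06 in mes-2, where the median over all genes was 0.005, -0.0025 and -0.0025. Within 0.5 of 0 on the log2 scale lay 23 of 27 in the double mutant, 26 of 27 in mes-4 and 23 of 27 in mes-2 (85.2%, 96.3% and 85.2%), against 81.3%, 90.4% and 88.0% of all genes. These shares lie near those of all genes and are not read as a result about the family. No astacin gene differed by more than 2-fold in the double mutant or in mes-4, and dpy-31 and nas-30 did in mes-2. Over all genes, 5.47% did in the double mutant, 2.38% in mes-4 and 3.55% in mes-2. With 27 genes, these counts are likewise not read as a result about the family.

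**Figure D1:**
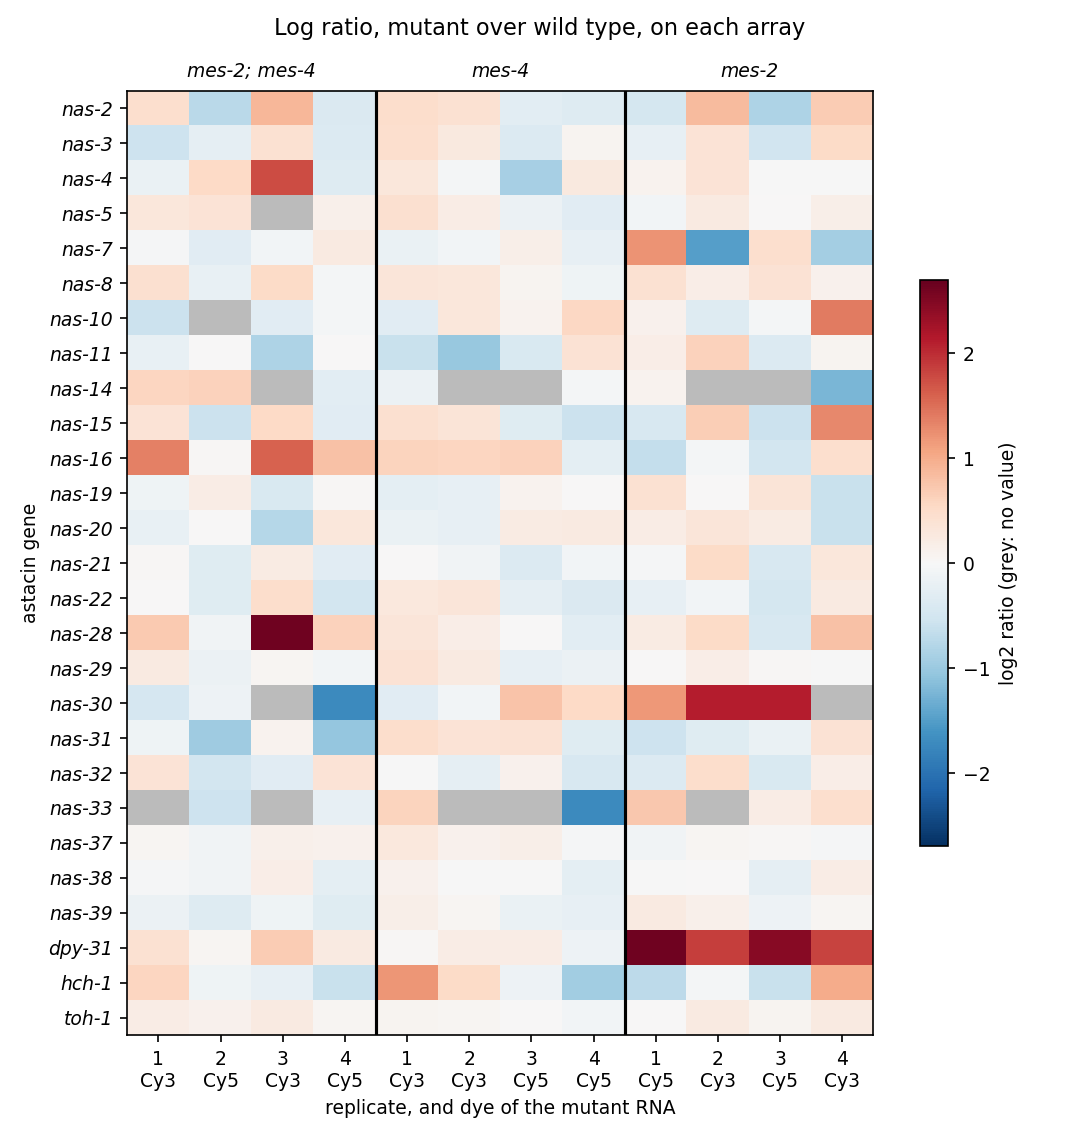
Log2 ratio of mutant over wild type for the 27 astacin genes (rows) on each array (columns), grouped as mes-2; mes-4, mes-4 and mes-2, with the replicate number and the dye of the mutant RNA below; grey marks a missing value. The dpy-31 row is deep red on all 4 mes-2 arrays, between 1.82 and 2.62, and pale on the other arrays, and rows such as nas-2 alternate with the dye.

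dpy-31 was the astacin gene that differed most from wild type. It encodes a protease that cleaves the C-terminal propeptide of the cuticle collagen SQT-3 and is named for the short, stout body of its mutants. Its log2 ratios were 2.62, 1.87, 2.46 and 1.82 in mes-2, all far above 0, with a mean of 2.54 where the mutant RNA carried Cy5 and of 1.85 where it carried Cy3. The limma estimate was 2.19 (SE 0.15, n = 4, adjusted p = 2.5e-05), or 4.57-fold higher. By unadjusted p it was gene 14 of 13732 in that comparison, and by log2 ratio gene 54 from the top.

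In the double mutant, dpy-31 had 0.41, 0.05, 0.69 and 0.24, with an estimate of 0.35 (SE 0.15, n = 4, 95% interval 0.013 to 0.68, limma adjusted p = 0.167). In mes-4 it had 0.04, 0.21, 0.21 and -0.14, with an estimate of 0.08 (SE 0.15, 95% interval -0.25 to 0.41, limma adjusted p = 0.937). The highest value outside mes-2, 0.69, lay below the lowest in mes-2, 1.82.

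The differences between mutants were tested in the same fit. Those that involve mes-4 also differ in wild-type strain, N2 against unc-4(e120), so mutation and wild-type strain cannot be told apart in them. In the double mutant minus mes-2, 1 astacin gene was higher (nas-16) and 2 were lower (dpy-31 and nas-30), against 3.26% of all genes higher, 2.35% lower and 5.61% in either direction. In the double mutant minus mes-4 the limma counts were 0 and 0, against 1.33% higher, 0.277% lower and 1.6% in either direction, and 3 of 27 (nas-16, nas-28 and nas-31) had an unadjusted p under 0.05, against 12.3% of all genes. In mes-4 minus mes-2, 0 were higher and 1 was lower (dpy-31), against 0.553% higher, 1.24% lower and 1.79% in either direction.

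For dpy-31, the double mutant minus mes-2 was -1.84 (SE 0.21, limma adjusted p = 8.2e-04). In mes-4 minus mes-2, where the wild-type strain also differed, it was -2.11 (SE 0.21, limma adjusted p = 9.4e-04). Germ lines of the double mutant had a lower dpy-31 ratio than those of mes-2. The mes-2 probe was low in both, and both were set against unc-4(e120). Germ lines of the double mutant were also selected differently, so the added mutation and the selection cannot be told apart in this difference. The double mutant minus mes-4 was 0.27 (95% interval -0.21 to 0.74, adjusted p = 0.692), which did not pass. The call in mes-2 and both called differences held in all 23 other settings tried.

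nas-30 rose in mes-2 as well, but on fewer values. Its ratios were 1.18, 2.13 and 2.13 on replicates 1, 2 and 3, with none on replicate 4, and the estimate was 1.80 (SE 0.34, n = 3, limma adjusted p = 0.0209), or 3.48-fold higher. The double mutant gave the opposite sign, with -0.46, -0.13 and -1.72 on 3 arrays and an estimate of -0.79 (SE 0.34, limma adjusted p = 0.184). In mes-4 the values were -0.31, -0.08, 0.77 and 0.54, with an estimate of 0.23 (SE 0.29, limma adjusted p = 0.885).

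The 3 double-mutant values of nas-30 and its 3 mes-2 values did not overlap, and the difference between these mutants was -2.58 (SE 0.48, limma adjusted p = 0.0181). mes-4 minus mes-2 was -1.57 (SE 0.45, limma adjusted p = 0.165), which did not pass. Without mes-2 replicate 2 the estimate in mes-2 was 1.49 (adjusted p = 0.204), and without replicate 3 it was 1.66 (adjusted p = 0.101), so the call needed both arrays. Without those replicates the difference also lost its call, at -2.32 (adjusted p = 0.0713) and -2.43 (adjusted p = 0.0627). The call in mes-2 also ended when that mutant was fitted alone (1.89, adjusted p = 0.0943), and the difference when each mutant was fitted alone (adjusted p = 0.0702) or without the 3 arrays that stand apart (-1.99, adjusted p = 0.0973).

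nas-16 was the astacin gene with the lowest p in the double mutant. It had 1.36, 0.03, 1.60 and 0.80 there, all above 0, against 0.61, 0.57, 0.62 and -0.26 in mes-4 and -0.64, -0.05, -0.50 and 0.45 in mes-2. The estimate was 0.95 in the double mutant (SE 0.17, n = 4, limma adjusted p = 0.0037), 0.38 in mes-4 (SE 0.17, adjusted p = 0.348) and -0.18 in mes-2 (SE 0.17, adjusted p = 0.685). Its ratios in the double mutant averaged 0.41 with mutant RNA in Cy5 and 1.48 with mutant RNA in Cy3.

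The double mutant exceeded mes-2 for nas-16 by 1.13 (SE 0.24, limma adjusted p = 0.0225). Against mes-4 the difference was 0.56 (95% interval 0.026 to 1.1, adjusted p = 0.376), which did not pass. The difference from mes-2 lost its call without the dye term (adjusted p = 0.148) and without any of 5 arrays, namely mes-2 replicates 1 (0.0671), 2 (0.0665) and 3 (0.0534) and double-mutant replicates 3 (0.056) and 4 (0.0725), each given as the adjusted p. The rise in the double mutant itself was lost when its 4 arrays were fitted alone (adjusted p = 0.101).

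nas-28 rose in the double mutant mainly on 1 array. Its values were 0.71, -0.09, 2.63 and 0.63, and replicate 3 stood far above the others. The estimate was 0.97 (SE 0.27, n = 4, limma adjusted p = 0.0361), and without replicate 3 it was 0.51 (adjusted p = 0.0842). The call was also lost without double-mutant replicate 4 (0.94, adjusted p = 0.13), mes-2 replicate 4 (adjusted p = 0.0514), mes-4 replicate 1 (adjusted p = 0.0547) or mes-4 replicate 4 (adjusted p = 0.054). It was lost as well without the dye term (adjusted p = 0.103), with the arrays scaled (0.82, adjusted p = 0.0509), with the double mutant fitted alone (adjusted p = 0.291) and without the 3 arrays that stand apart (1.27, adjusted p = 0.0581). In mes-4 it had 0.32, 0.17, 0.00 and -0.28, and in mes-2 it had 0.23, 0.52, -0.43 and 0.80, neither past the test (adjusted p = 0.987 and 0.704).

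**Figure D2:**
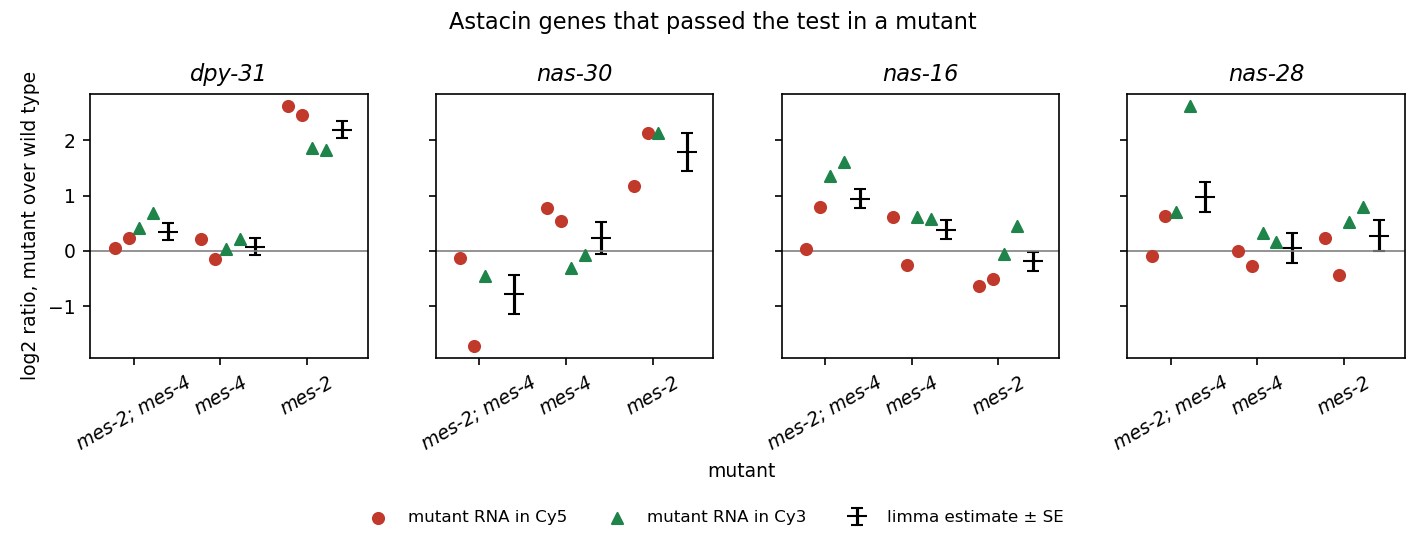
Log2 ratios of dpy-31, nas-30, nas-16 and nas-28 by mutant; each point is an array, circles with mutant RNA in Cy5 and triangles with mutant RNA in Cy3, and the bar is the limma estimate with its SE. All dpy-31 values in mes-2 lie at 1.82 or above and all others at 0.69 or below, while the nas-28 estimate in the double mutant includes a single value of 2.63.

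Of the moulting astacins, nas-37 and nas-38 were tested and not called, and nas-36 had too few values to be tested. nas-37, a protease needed to shed the old cuticle, had 0.05, -0.09, 0.14 and 0.11 in the double mutant, 0.29, 0.12, 0.16 and -0.03 in mes-4, and -0.10, 0.06, 0.03 and -0.04 in mes-2. Its estimates ran from -0.01 to 0.14 with an SE of 0.077, and the 95% interval in mes-2 was -0.18 to 0.16, so a change of the size of dpy-31 lay outside it. nas-38, which acts at moults, had -0.03, -0.09, 0.18 and -0.26 in the double mutant, 0.12, -0.01, -0.02 and -0.26 in mes-4, and -0.01, 0.00, -0.24 and 0.21 in mes-2. The values of both genes crossed 0 in all mutants.

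nas-39, whose protein resembles the vertebrate protease BMP1 and fly tolloid, had -0.15, -0.35, -0.11 and -0.33 in the double mutant, 0.15, 0.06, -0.17 and -0.23 in mes-4, and 0.25, 0.13, -0.14 and 0.06 in mes-2. All 4 double-mutant values lay below 0, and the estimate of -0.23 (SE 0.084, n = 4) did not pass (limma adjusted p = 0.0919). toh-1, named as a tolloid homologue, had 0.19, 0.11, 0.24 and 0.05 in the double mutant, 0.07, 0.05, 0.02 and -0.07 in mes-4, and 0.02, 0.24, 0.08 and 0.24 in mes-2. It was above 0 on all arrays of the double mutant and of mes-2, by small amounts that did not pass (limma adjusted p = 0.185 and 0.315).

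hch-1, the hatching enzyme, had 0.57, -0.11, -0.23 and -0.60 in the double mutant, 1.19, 0.51, -0.14 and -0.93 in mes-4, and -0.71, -0.05, -0.61 and 1.00 in mes-2. Its values spread widely on either side of 0 in all 3 mutants, with estimates of -0.09, 0.16 and -0.09 (SE 0.22 each). nas-7, a pharyngeal astacin gene, had -0.03, -0.30, -0.08 and 0.24 in the double mutant, -0.18, -0.07, 0.15 and -0.23 in mes-4, and 1.22, -1.49, 0.46 and -0.92 in mes-2. In mes-2 the nas-7 ratio was above 0 on the Cy5 arrays and below 0 on the Cy3 arrays, so its estimate was -0.18 (SE 0.29, adjusted p = 0.842).

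Among the members with no role named here, nas-31 came nearest to the threshold. It had -0.12, -0.96, 0.09 and -1.04 in the double mutant, 0.47, 0.37, 0.40 and -0.32 in mes-4, and -0.55, -0.32, -0.17 and 0.39 in mes-2. The double-mutant estimate was -0.51 (SE 0.16, n = 4, limma adjusted p = 0.0534), and both Cy5 arrays held the low values. It passed as lower in the double mutant when genes were limited to those with at least 3 values per mutant, and without mes-2 replicate 2, mes-4 replicate 3 or double-mutant replicate 3.

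nas-4 had -0.18, 0.54, 1.76 and -0.35 in the double mutant, 0.30, -0.05, -0.90 and 0.27 in mes-4, and 0.10, 0.37, -0.01 and -0.02 in mes-2, with replicate 3 of the double mutant again the high array. nas-10 had -0.57, -0.31 and -0.06 on 3 arrays of the double mutant, -0.31, 0.31, 0.09 and 0.55 in mes-4, and 0.12, -0.34, -0.06 and 1.40 in mes-2. nas-11 had -0.19, 0.02, -0.84 and 0.00 in the double mutant, -0.60, -1.03, -0.42 and 0.40 in mes-4, and 0.17, 0.63, -0.37 and 0.08 in mes-2. None of these 3 genes passed in any mutant with all 12 arrays. Without the 3 arrays that stand apart, nas-4 passed in the double mutant, on the 2 arrays left there (0.54 and 1.76).

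nas-32 had 0.37, -0.50, -0.31 and 0.37 in the double mutant, -0.01, -0.25, 0.12 and -0.43 in mes-4, and -0.37, 0.48, -0.41 and 0.18 in mes-2, centred near 0 throughout. nas-14 and nas-33 were measured on only 7 arrays each. nas-14 had 0.58, 0.62 and -0.29 in the double mutant, -0.16 and -0.06 in mes-4, and 0.10 and -1.24 in mes-2. nas-33 had -0.56 and -0.22 in the double mutant, both on Cy5 arrays, 0.61 and -1.72 in mes-4, and 0.72, 0.21 and 0.45 in mes-2. The fit corrected the 2 double-mutant values of nas-33 for dye from the other arrays, which turned their negative mean into an estimate of 0.10 (SE 0.50), so its sign there has no support in the values.

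The remaining 10 members (nas-2, nas-3, nas-5, nas-8, nas-15, nas-19, nas-20, nas-21, nas-22 and nas-29) had estimates between -0.18 and 0.32 in the 3 mutants, with a lowest limma adjusted p of 0.0986. Their single array values ran from -0.84 to 1.29. The highest estimate was that of nas-5 in the double mutant, above 0 on 3 of 3 arrays there.

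For some members, part of the spread between arrays followed the dye. The effect of which dye the mutant RNA carried passed the threshold for 8 of 27 astacin genes (29.6%), against 30% of all genes. That share lies near that of all genes and is not read as a result about the family. For nas-2 the ratios were below 0 on all arrays with mutant RNA in Cy5 and above 0 on all with mutant RNA in Cy3, averaging -0.56 and 0.67 in the double mutant, -0.32 and 0.45 in mes-4, and -0.66 and 0.78 in mes-2. Its dye effect was -1.14 (SE 0.14, limma adjusted p = 7.0e-04), larger than any of its estimates for a mutant.

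nas-15 gave the same pattern, with a dye effect of -1.07 (SE 0.15, adjusted p = 0.0012), and hch-1 one of -1.01 (SE 0.26, adjusted p = 0.015). nas-16, nas-31, nas-22 and nas-21 also read lower with mutant RNA in Cy5, by -0.75, -0.59, -0.57 and -0.42, while nas-19 read higher by 0.45. Each mutant had 2 arrays of either orientation, so that a constant dye effect cancels in its mean where no value is missing. dpy-31 and nas-30 were above 0 in either orientation in mes-2. For nas-30 the Cy3 orientation rests on replicate 2 alone, at 2.13.

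**Figure D3:**
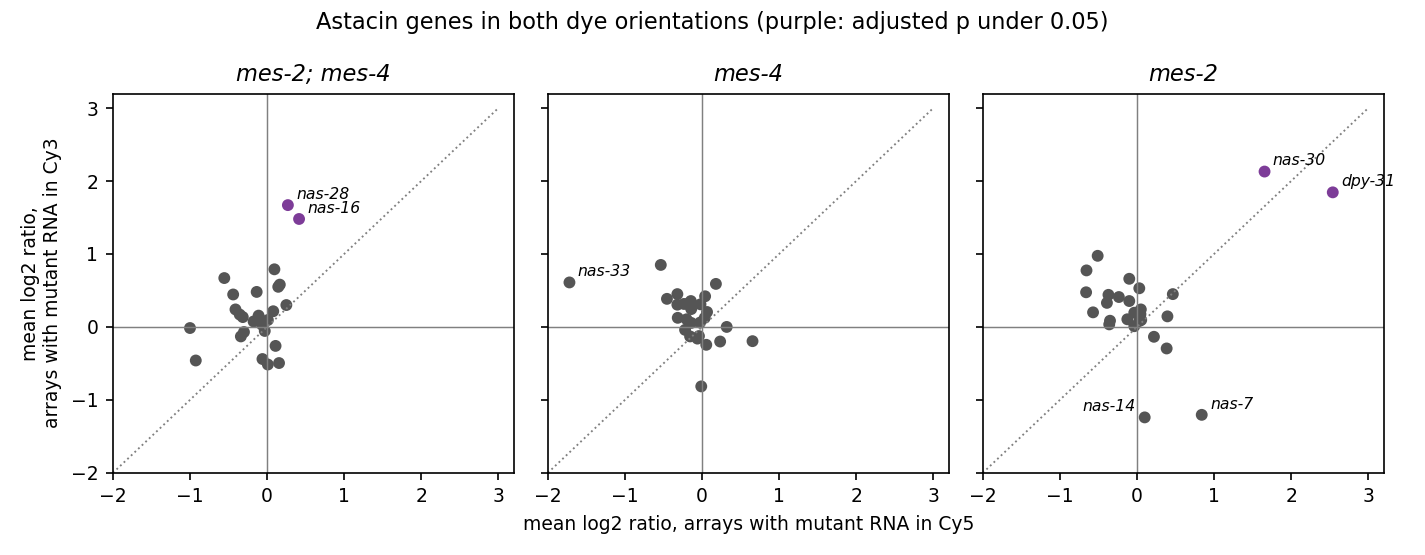
Mean log2 ratio of each astacin gene on the arrays with mutant RNA in Cy5 (horizontal) and in Cy3 (vertical) in mes-2; mes-4, mes-4 and mes-2; purple marks genes with an adjusted p under 0.05 the dotted line marks equality, and nas-33 is absent from the double mutant's panel, where it has no Cy3 value. dpy-31 (2.54 and 1.85) and nas-30 lie high on both axes in mes-2, where the Cy3 value of nas-30 comes from replicate 2 alone. There nas-7 falls in the lower right, with opposite signs in the 2 orientations.

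By position in the numbered series, 3 of the 4 called members, pooled over mutants, lay between nas-16 and nas-30. With so few genes per range, this is not read as a result. Genes without a probe (nas-6, nas-9, nas-12, nas-13, nas-23 and nas-40) are not counted here. Of nas-1 to nas-5, 4 of 5 genes with a probe were measured and 0 called in any mutant. Of nas-6 to nas-15, 6 of 6 with a probe were measured and 0 called. Of nas-16 to nas-30, 8 of 13 with a probe were measured, with nas-16 and nas-28 higher in the double mutant and nas-30 higher in mes-2. That is 25% and 12.5% of the measured genes, against 14.7% and 4.9% of all genes called in either direction. Of nas-31 to nas-38 with dpy-31 and hch-1, 7 of 8 with a probe were measured. There dpy-31 was called in mes-2, or 14.3% of the 7, against 4.9% of all genes. toh-1, whose symbol is not numbered in this series, was grouped with nas-39. Both were measured and 0 called in any mutant.

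The X chromosome held 8 of the 27 genes (29.6%, against 13.2% of genes tested): nas-10, nas-11, nas-15, nas-33, nas-37, nas-38, nas-39 and hch-1. None of them was called by limma in the double mutant, mes-4 or mes-2, where 14.7%, 3.64% and 4.9% of all genes were called, and 0 of 8 is not read as a result. Their median log2 ratio was -0.071 in the double mutant, -0.039 in mes-4 and 0.101 in mes-2. The 4 called genes are autosomal, with dpy-31 and nas-28 on chromosome III, nas-30 on I and nas-16 on V.

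No measured gene directly beside dpy-31 or nas-30 was called in mes-2. On its 2 sides in the annotated gene order lie pfd-5, a prefoldin subunit gene, with -0.18 (SE 0.21) in mes-2, and rpl-6, a ribosomal protein gene, with 0.09 (SE 0.20), neither past the test (limma adjusted p = 0.769 and 0.902). Near nas-30, prhg-1, its direct neighbour, had -0.09 (SE 0.10, adjusted p = 0.769) in mes-2, and cutl-20, 2 genes along, had 0.04 (SE 0.13, adjusted p = 0.944). nas-16 lies within 3 genes of nas-18 and nas-17 on V, which missed the condition on missing values, and K03B8.4 between them had -0.02 (SE 0.092, adjusted p = 0.948) in the double mutant. Near nas-28, its neighbour F42A10.7 had 0.02 (SE 0.11, adjusted p = 0.951) in the double mutant, and ugt-66, 2 genes along on the other side, fell by 0.40 (SE 0.097, adjusted p = 0.0196). Whether probes of such neighbouring paralogs cross-hybridise was not tested, as probe sequences were not used here.

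The gene of the DPY-31 substrate was not called in mes-2, where dpy-31 rose. sqt-3, the cuticle collagen gene, had 0.34, 0.21, 0.44 and 0.58 in the double mutant, 0.29, -0.13, 0.37 and 0.06 in mes-4, and 0.33, 0.24, 0.21 and 0.11 in mes-2. It rose in the double mutant by 0.39 (SE 0.098, n = 4, limma adjusted p = 0.0222) and had 0.22 in mes-2 (SE 0.098, adjusted p = 0.288). dpy-17, a collagen gene that acts with sqt-3, had 0.38, -0.41, 0.21 and 0.08 in the double mutant, 0.31, 0.14, 0.04 and -0.48 in mes-4, and -1.0, 0.42, -0.78 and 0.42 in mes-2, where its sign followed the dye.

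A list of 38 genes of cuticle synthesis and moulting had 28 measured members. In the double mutant 2 rose and 1 fell (median 0.11), in mes-4 0 rose and 1 fell (median 0.029), and in mes-2 1 rose and 0 fell (median 0.016). Called were thus 10.7%, 3.57% and 3.57% of the measured list, against 14.7%, 3.64% and 4.9% of all genes. The called members were nekl-2, a kinase gene needed for moulting, with 0.87 (SE 0.13) in the double mutant, sqt-3 as above and mlt-10 with -0.32 (SE 0.072) there, the collagen gene rol-6 with -0.75 (SE 0.15) in mes-4, and noah-2, an apical matrix gene, with 0.55 (SE 0.14) in mes-2. The highest estimate in this list in mes-2 was 0.85, against 2.19 for dpy-31.

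Other metalloproteases, 33 measured of a list of 40 neprilysins, ADAM, ADAMTS and matrix metalloproteases, had 2 higher and 3 lower in the double mutant (median -0.028), 1 and 1 in mes-4 (median -0.092) and 0 and 0 in mes-2 (median 0.078). Called were 15.2%, 6.06% and 0% of these, against 14.7%, 3.64% and 4.9% of all genes. adm-4, an X-linked ADAM gene, rose by 2.84 (SE 0.37, adjusted p = 4.8e-04) in the double mutant and by 1.86 (SE 0.37, adjusted p = 0.0192) in mes-4. nep-8, a neprilysin gene, had -1.85 (SE 0.21) in the double mutant and -0.81 (SE 0.18) in mes-4, both called. A difference between this list and the astacins was not tested.

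**Figure D4:**
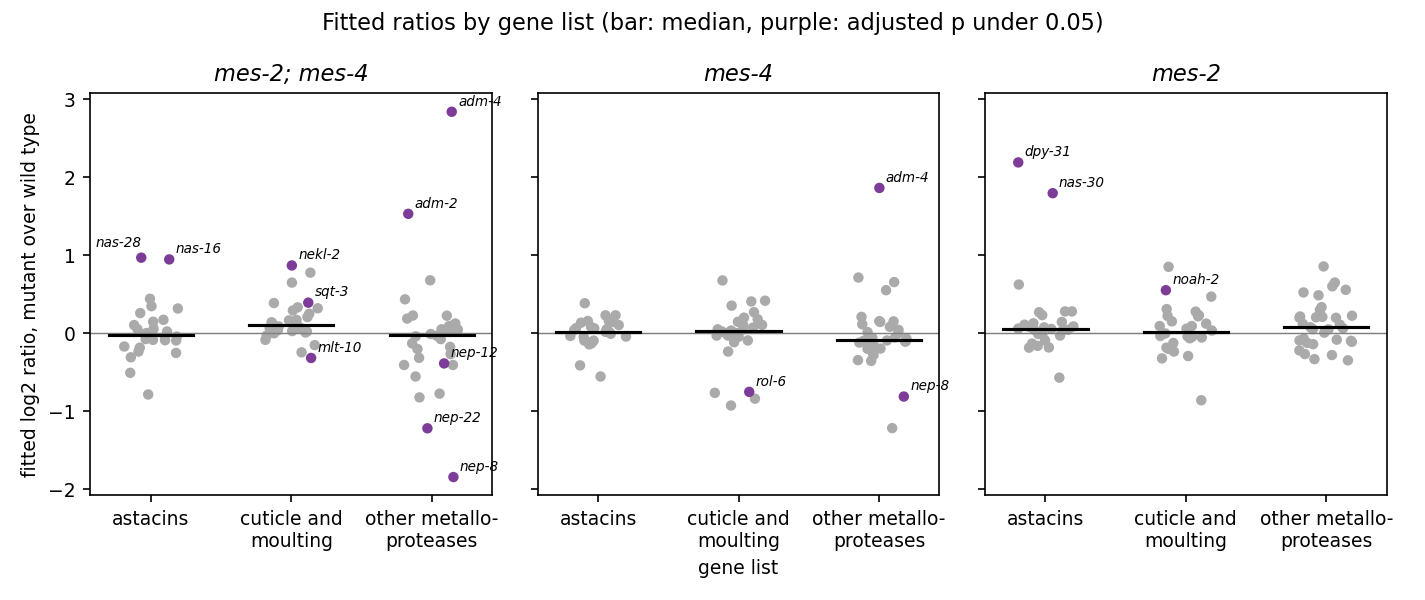
Fitted log2 ratios of the measured astacins (27), cuticle and moulting genes (28) and other metalloproteases (33) in mes-2; mes-4, mes-4 and mes-2; each point is a gene, purple points have an adjusted p under 0.05 and the bar is the median. The medians lie between -0.092 and 0.11, and dpy-31 at 2.19 and nas-30 at 1.80 stand above their list in mes-2.

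Markers of tissues that a dissection can carry along were compared with the called astacins. In mes-2, where dpy-31 rose, 0 of 9 measured hypodermal markers of 12 were called, and their median ran from -0.34 to 0.195 over the arrays. In the same germ lines 1 of 12 intestinal markers rose (pept-1, by 0.95), and 0 of 6 pharyngeal and 0 of 10 sheath and spermathecal markers were called. Of 6 body wall muscle markers 0 were called and 0 lay above 0 (median -0.255). Of 5 neuronal markers 2 rose (unc-31 by 2.90 and ric-19 by 1.95). Of 8 sperm markers 2 rose there (spe-15 by 0.75 and fog-3 by 0.72), and the list median was above 0 on all 4 arrays, from 0.115 to 0.335. Over all genes 3.74% rose and 1.16% fell in mes-2. The part of the neuronal, intestinal and sperm markers in the rise of dpy-31 and nas-30 was not tested.

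In the double mutant, where nas-16 and nas-28 rose, 1 of 9 hypodermal markers was called (sqt-3), 0 of 12 intestinal, 0 of 6 pharyngeal and 0 of 10 sheath and spermathecal markers were called, 1 of 6 muscle markers fell, and 3 of 5 neuronal markers rose. Of 8 germline markers 4 fell there, with a list median between -0.52 and -0.12 over the arrays. Of 8 sperm markers 3 fell, among them spe-15 with -1.40, and 1 rose (fog-3, by 0.35), while 1 of 10 oocyte markers fell. Over all genes 9.02% rose and 5.71% fell in the double mutant. The part of these markers in the astacin values was not tested. In mes-4 the 12 intestinal markers had a median log2 ratio of -0.896, with 0 called, against 3.64% of all genes. Of these 12, 8 had an unadjusted p under 0.05 in limma (66.7%), against 13.9% of all genes. Among the other lists in mes-4, unc-119 (neuronal, 1.57) and nmy-1 (sheath and spermathecal, 0.42) were called higher. Called lower were the sperm markers spe-15 (-0.9975) and spe-44 (-0.53), gld-1 (germline, -0.63) and rol-6 (hypodermal, -0.75). No pharyngeal, muscle or oocyte marker was called there.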

How the data were processed

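RNA was extracted with Trizol, amplified as poly-A RNA and labelled with Cy3 or Cy5, per the labels' protocols. Per array, the authors deposited a log ratio for each probe, read here as log2; the image analysis, the normalization, the spot filter and the log base are not given in the sources used here, and a natural logarithm cannot be told apart from log2. Of 22490 probes, 17461 named 1 gene, 0 several and 5029 none, through the platform annotation. Gene IDs were matched to a gene table of assembly WBcel235 for chromosomes and gene order only (16310 matched, 88 did not). Probes of a gene were averaged per array, and a gene was tested when each mutant had 2 or more of its 4 values.

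In R 4.3.3, limma 3.58.1 fitted all 12 arrays with 3 mutant coefficients and a dye coefficient. Mutants were tested against 0 and against each other, two-sided, with Benjamini-Hochberg adjustment over all genes per comparison. Alternatives left out single arrays, the 3 arrays set apart by earlier results, or the 2 arrays at the other end of that axis. Others changed the filter, the scaling, the dye term, the block, the pooling of groups or the threshold. Errors are limma standard errors (SE). The fits were tested on simulated data with independent noise on each array, which does not cover residuals that correlate between arrays. Replicate numbers did not pair the arrays: of 12 pairs of same-numbered arrays in different mutants, 4 had residuals that correlated above 0.1 (range -0.473 to 0.54). Of 36 differently numbered pairs 13 did (range -0.719 to 0.641). The main fit took arrays as independent and did not model such correlations.

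The family, the gene lists and the tests were chosen with earlier results of these data known. Values on every array are given for members called in any comparison, for the 3 highest and 3 lowest members in each mutant and for members with a known role; sqt-3 and dpy-17 were added as genes that act with dpy-31.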

Additional observations from a re-analysis of the deposited data

Results flagged for a closer look

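Differences between mutants passed the test for 3 astacin genes. For dpy-31 the difference was -1.84 between the double mutant and mes-2, and -2.11 between mes-4 and mes-2. Between the double mutant and mes-2 it was -2.58 for nas-30 and 1.13 for nas-16. All are log2 differences from limma, the first-named mutant minus the second, with the values on each array given above. Germ lines of the double mutant were selected differently from those of mes-2. The mes-4 arrays were set against N2 and the mes-2 arrays against unc-4(e120), so mutation and wild-type strain cannot be told apart in that difference.

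A single array lay far from the other 3 of its group in 3 of 71 sets of 4 values, where chance flags about 1 in 20. These were nas-16 at -0.26 and nas-31 at -0.32, both on mes-4 replicate 4, and nas-20 at -0.60 on mes-2 replicate 4.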

How the results depend on the processing

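In 23 other settings, 12 of which left out 1 array each, no called astacin gene changed direction. The counts of 0 in mes-4, 0 in the double mutant minus mes-4 and 1 in mes-4 minus mes-2 (dpy-31) held in all of them. Of the 2 members called in mes-2, 1 was left (dpy-31) among genes with values on all 12 arrays, when mes-2 was fitted on its own and in the fit with a replicate block; without 1 array the count ran from 1 to 2. Of the 2 called in the double mutant, 1 was left (nas-16) with arrays scaled or with no dye term, and 0 when that group was fitted on its own or with an added 2-fold threshold. Without the 3 arrays set apart the count was 2, but nas-4 took the place of nas-28, and without 1 array the count ran from 1 to 3. The 3 called in the double mutant minus mes-2 ran from 1 to 3 without 1 array. With the replicate block the counts were 3 in the double mutant, where nas-31 joined, and 2 in its difference from mes-2, and nas-30 lost its call in mes-2 (1.66, adjusted p = 0.108). The cause of these losses was not tested, except that nas-30 lacks values on 2 arrays and so is absent among genes with all values. Over all genes, the calls in the double mutant ran from 172 (fitted on its own) to 2740 around 2022. They ran in mes-4 from 180 to 1248 around 500, and in mes-2 from 287 to 1153 around 673. In the double mutant minus mes-2 they ran from 290 to 1687 around 770. In the double mutant minus mes-4 they ran from 55 (without mes-4 replicate 2) to 891 around 220. In mes-4 minus mes-2 they ran from 91 (without mes-4 replicate 1) to 554 around 246. The counts of 2740, 1687 and 891 came without the 2 double-mutant arrays at the other end of the residual axis. Those of 1248, 1153 and 554 came without the 3 arrays set apart. With 4 arrays per mutant, precision is limited by their number, and signal over background is unknown.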

Other observations

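The 7 astacin genes that missed the condition on missing values were nas-1, nas-17, nas-18, nas-24, nas-25, nas-27 and nas-36. nas-36, a protease gene needed for moulting, had 2 probes. One of them gave 4.73 and 5.80 on mes-2 replicates 1 and 3, with mutant RNA in Cy5, and -3.91 on mes-2 replicate 2, with mutant RNA in Cy3. Its sign thus followed the dye, and these were the most extreme values of any astacin gene. The other probe gave -1.44 on double-mutant replicate 1 and 0.21 on mes-4 replicate 4. nas-17 had values on all 4 double-mutant arrays (-0.13, 0.34, -0.58 and 0.08) but on none of the mes-2 arrays.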
